A study of Mus musculus with 7 samples.

Results

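Late recovery after a long run was followed in mouse plantaris by setting the log2 ratios 24 h after a run (array P24h) against those 12 h after it (array P12h). The probes compared are those with a usable ratio, above 1e-12 in size, on both arrays, which held for 11171 of the 16273 probes of the series (68.6%). A further 2282 probes had a ratio on P12h only, 138 at P24h only and 2682 on neither. On these 2 arrays every probe outside the limit was listed at exactly 0, and the smallest sizes inside it were 1.01e-06 at P12h and 1.65e-05 at P24h.

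Per the labels, the Cy5 channel of each array held pooled plantaris RNA of 3 to 5 mice sampled 12 h or 24 h after a 12 h run, and the Cy3 channel pooled RNA of 8 untrained mice. The other 5 arrays held pools taken at the end of a 3 h run (R3h), at the end of the 12 h run (R12h), 3 h and 6 h after it (P3h and P6h), and after 4 weeks of running (R4w). All 7 used the same untrained pool design and the same dye orientation, and no strain, age or sex was given for these groups in the sources used here. Each condition had 1 array of 1 pool, so there is no test, no replicate error and no spread between mice, which limits the precision of every value. A positive ratio likely means more RNA in the running mice, because red over green is the customary order and Cy5 is read in red, but the sources do not state the direction. Reversing it would exchange above and below throughout.

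The plantaris is a hindlimb muscle made up mostly of fast fibres that extends the ankle. A long run draws on its glycogen and sets off transient transcription of metabolic, stress and regulatory genes. Many of these transcripts are known to peak in the first hours after exercise and to go back towards the resting level within about a day, while repair and remodelling go on longer. The comparison of 24 h with 12 h bears on that late phase. In bulk muscle, fewer cells of a type and less RNA per cell cannot be told apart. Ratios give no level, so the labelled tissue could not be checked against muscle markers.

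Gene names below come from the platform annotation of the probes and serve as labels only. Probes that share a label did not share their difference between the arrays. Over 295 pairs of kept probes with the same accession, P24h minus P12h correlated at r = 0.0789 across pairs, and over 1697 pairs with the same symbol at r = 0.0197 (names on more than 4 kept probes left out, and pairs are not independent). Of the 97 same-symbol pairs in which at least 1 probe differed by 1 or more, 2 pairs had both past 1 in the same direction. The 19 kept probes annotated Gapdh, a glycolytic enzyme often taken as a reference, ran from -1.42 to 0.69 in P24h minus P12h, with a median of -0.04 and an SD of 0.61 across probes. A clause on what a gene does describes the gene of that name, not a transcript shown to be under the probe.

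Large differences between 12 h and 24 h were mostly towards lower ratios on P24h. Of the 11171 probes, 291 were at least 1 log2 unit lower on P24h than on P12h (2.6%) and 27 at least 1 higher (0.242%), 318 in all (2.85%). The bulk of the probes did not lean that way. The median of P24h minus P12h was 0.02, 52.1% of the differences were above 0, and the lopsidedness lay in the tails, with 1% of differences below -1.29 and 1% above 0.77. The arrays also differed in width. The median absolute deviation (MAD, the median distance of the probes from their array's median) was 0.171 at P12h and 0.270 at P24h, a ratio of 1.58. After each array was divided by its MAD, 735 probes were at least 3 MAD units lower on P24h (6.58%) and 276 at least 3 higher (2.47%). The higher probes thus made up 8.49% of the differences past the limit as deposited, 27.3% in MAD units and 22.3% when the arrays were quantile-normalized to each other. All 27 higher and 273 of the 291 lower probes also passed 3 MAD units in the same direction, and 8 of the lower ones changed sign with scaling.

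Probes were sorted by where they stood on each array. A ratio of at least 1 in size was taken as away from the control pool, and one under 0.5 as at its level. In MAD units the limits were 3 and 1.5. As deposited, 17 probes returned to the control level, 15 of them from above (0.134%) and 2 from below (0.0179%). In the other direction 264 probes moved away, 30 upwards (0.269%) and 234 downwards (2.09%). A further 70 were above the control pool on both arrays (0.627%) and 88 below on both (0.788%). None of the 11171 crossed from 1 or more on one side to 1 or more on the other as deposited, against 11 probes in MAD units (0.0985%). The remaining 10732 were in no class. Of the 291 lower probes, 166 had moved away downwards, 19 were below on both arrays, 8 had returned from above, 2 were above on both and 96 were in no class. Of the 27 higher ones, 16 had moved away upwards, 1 had returned from below and 10 were in no class.

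The balance between returning and moving away depended on the scale. In MAD units 289 probes returned, 167 from above (1.49%) and 122 from below (1.09%), while 54 moved away upwards (0.483%) and 303 downwards (2.71%), which makes 357. With the arrays brought to a common MAD and the limits kept at 1 and 0.5 log2 units, 57 returned from above and 20 from below, and 11 moved away upwards and 71 downwards. With the arrays quantile-normalized to each other, 21 returned from above and 38 from below, so that the order of the returned classes turned, and 19 moved away upwards and 66 downwards. More probes moved away downwards than upwards on each of these scales. Of the deposited classes, 13 of the 15 returned from above, both returned from below, 12 of the 30 moved away upwards and 174 of the 234 moved away downwards were in the same class in MAD units.

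Starting from P12h, the high and low probes took different courses. Of 112 probes at least 1 above the control pool on P12h, 78 were nearer to it on P24h (69.6%), and their median went from 1.27 to 1.13. Of 95 probes at least 1 below, 17 were nearer on P24h (17.9%), and their median went from -1.61 to -2.09. In MAD units 95.3% of 599 high and 86.1% of 397 low probes were nearer to the control level on P24h. Probes picked for a large value on 1 array tend to be smaller on another, so the same count was made with the arrays exchanged. Of 146 probes at least 1 above on P24h, 75.3% had been nearer to the control pool on P12h, and of 379 at least 1 below on P24h, 97.4% had been. In MAD units these shares were 50.5% of 293 and 80.1% of 607. Among probes at least 1 above on P12h, then, the share nearer on P24h was no larger than in the exchanged count as deposited, and was larger in MAD units.

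Gna11, an alpha subunit of the Gq class of G proteins, labels the probe with the highest P12h ratio among those that returned from above. Probe 17262 read 2.79 at R3h, 3.30 at R12h, 3.32 at P3h, 2.67 at P6h, 1.91 at P12h and 0.01 at P24h, and at 0.19 at R4w. It was thus high on R3h, R12h, P3h, P6h and P12h, and at the level of the control pool on P24h and R4w. These arrays held separate pools of mice. The difference of P24h from P12h was -1.90 log2 units, or -11.16 MAD units.

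Probe 1020 (annotated Cacna1e, a pore subunit of a voltage-gated calcium channel) had a like course, with 2.25 at R3h, 2.71 at R12h, 3.13 at P3h, 2.73 at P6h, 1.86 at P12h, 0.22 at P24h and -0.15 at R4w. Over all probes measured on the 7 arrays it was the one nearest to the Gna11 probe, with a largest gap of 0.59 on any array. Probe 5396 (annotated Nrgn, the calmodulin-binding protein neurogranin) was lower than both up to P12h. It had 0.73 at R3h, 1.27 at R12h, 1.56 at P3h, 1.60 at P6h, 1.34 at P12h, 0.28 at P24h and 0.22 at R4w. Probe 12038 (annotated Sgk3, a serine/threonine kinase) went from 1.20 at P12h to 0.42 at P24h. Its 1.56 MAD units on P24h lay just outside the scaled limit for the control level.

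Probe 980 (annotated B3galt5, a galactosyltransferase) differed from these in its timing. Its P24h value of 0.48 was 1.76 MAD units, also outside the scaled limit for the control level. The probe was below the control pool on R3h (-0.32) and R12h (-0.20), above it on P3h (0.69) and P6h (0.39), and highest on P12h (1.18). Probes 177 (annotated Capn5, a calpain) and 1737 (annotated Kpna2, a nuclear import adaptor) likewise stood at 0.26 and 0.25 at R12h, between 1 and 1.04 at P12h, and at 0.00 and 0.08 at P24h. The latter pair was picked after the values were seen. All 15 probes had a ratio on every array. Their medians were 0.79 at R3h, 1.15 at R12h, 1.39 at P3h, 1.39 at P6h, 1.08 at P12h, 0.22 at P24h and 0.19 at R4w. The P12h and P24h values were fixed by the choice of members and the others were not, though all arrays share the control pool design. On P3h 13 of the 15 were at least 1, against 251 of all 13652 probes usable there. Of the 70 probes above the control pool on both P12h and P24h, 60 were at least 1 on P3h. High values on P3h were thus not particular to the probes that returned. On R4w 13 were under 0.5 in size, as were most probes on that narrow array (MAD 0.165).

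The 2 probes that returned from below were annotated Tnfaip2, a gene known as inducible by tumour necrosis factor, and Pramel13. Probe 6460 (Tnfaip2) read -0.98 at R3h, -1.02 at R12h, -0.55 at P3h, -1.55 at P6h, -1.02 at P12h, 0.18 at P24h and -0.56 at R4w. P24h was its only value above 0 on the 7 arrays. Probe 1103 (Pramel13) went from -1.04 at P12h to -0.18 at P24h, with 0.14 at R12h and -0.77 at R4w. Both P12h values were within 0.05 of the limit of -1.

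Not every probe away from the control pool on P12h could be followed. Among the 2282 probes with a ratio on P12h but not on P24h, 7 were at least 1 above and 35 at least 1 below on P12h. Together these were 1.84% of the 2282, against 1.85% of the kept probes on P12h. These 35 compare with 95 low probes that could be followed, so the fate of the low probes is known for only part of them. The lowest was probe 1849 (annotated Grik2, a kainate receptor subunit), at -3.93 at R3h, -1.01 at P3h and -3.26 at P12h, with no ratio on the other arrays. Probe 5766 (annotated Ubash3a, a regulator of T cell receptor signalling) had -2.86 at P12h and -3.93 at R4w. Of the 35, 30 also had no ratio on P6h. That was the common case among the 2282. Of 9405 probes with a ratio on both P6h and P12h, 9023 had one on all 7 arrays, so few of the 2282 had one on P6h. Probe 1574 (annotated Egr2, an immediate early transcription factor) was among the 7 high ones, with 1.39 at R12h, 2.46 at P3h and 1.65 at P12h.

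Of the 30 probes that moved away upwards, 25 were under 0.5 in size on R3h, and so were 23 of 29 measured on R4w. Both arrays were narrower than P24h (MAD 0.183 and 0.165 against 0.270), and the shares over all probes were not counted. Nid1, a linker protein of basement membranes, is the label of probe 15852, the highest of them on P24h. It had 0.05 at R3h, 0.33 at R12h, 1.03 at P3h, 0.86 at P6h, 0.33 at P12h, 2.37 at P24h and 0.50 at R4w. P24h was the highest of these by 1.34, after a smaller high value on P3h. The difference from P12h was 2.04 log2 units, or 6.85 MAD units.

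Probe 9883 (annotated Trbv13-2, a variable segment of the T cell receptor) had -0.44 at R3h, -0.57 at R12h, -0.23 at P3h, -0.30 at P12h, 2.13 at P24h and 0.09 at R4w, with no ratio on P6h. Probe 13091 (annotated Clec7a, the beta-glucan receptor of myeloid cells) was between -0.12 and 0.21 on its other 5 measured arrays and at 1.85 at P24h. Probe 6415 (annotated Cyhr1) went from 0.16 at P12h to 1.72 at P24h and had no ratio on R12h and P6h. Probe 4917 (annotated Mak, a kinase of the male germ line) went from -0.03 on P12h to 1.32 on P24h. These 4 probes stood above the control pool by 1 or more on P24h and on no other array that measured them.

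Ntrk3, the receptor of neurotrophin 3, labels a probe with a longer course. Probe 14258 had -0.18 at R3h, 0.65 at R12h, 0.77 at P3h, 0.75 at P6h, 0.47 at P12h and 1.79 at P24h. Over all 30 probes of the class, the medians were 0.12 at R3h, 0.26 at R12h, 0.53 at P3h, 0.53 at P6h, 0.26 at P12h, 1.15 at P24h and 0.16 at R4w. On R12h 4 of 28 measured members were at least 1, on P3h 6 of 29, and on P6h 4 of 21. Over all usable probes of these arrays the counts were 147 of 12985, 251 of 13652 and 181 of 9494. The members were picked for a high P24h value and all arrays share the control pool design, so nothing further is read from this.

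Arf5, a small GTPase of the Golgi, labels the probe with the highest difference of all, which belongs to none of the deposited classes. Probe 289 had -0.02 at R3h, -0.87 at P3h, -0.83 at P12h, 2.15 at P24h and -0.17 at R4w, with no ratio on R12h and P6h. Its P12h value was neither at the control level nor past -1. The difference was 2.98 log2 units, or 12.79 MAD units, and in MAD units it was counted as crossing sides.

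Probes 15316 and 15317 (annotated Grap2, an adaptor of T cell signalling, and Serinc1) had almost the same values on all arrays. They stood at -0.10 and -0.11 at R3h, 0.05 and 0.02 at R12h, -0.23 and -0.27 at P3h, 0.12 and 0.09 at P6h, -0.27 and -0.28 at P12h, 1.5 and 1.40 at P24h, and 0.38 and 0.37 at R4w. The largest gap was 0.0943. They carry different names but consecutive probe numbers. Over the 8058 pairs of kept probes with consecutive numbers, P24h minus P12h correlated at only r = 0.0722 across pairs. In 441 of those pairs at least 1 probe was past 1 in size, and in 5 both were, in the same direction.

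Mpo, Pld2 and Kndc1 label probes that were high at the end of the run and again at 24 h, with a lower value at 12 h. Probe 12669 (annotated Mpo, the peroxidase of neutrophil granules) had 0.93 at R3h, 1.79 at R12h, 1.81 at P3h, 2.22 at P6h, 0.75 at P12h and 2.19 at P24h. Probe 2836 (annotated Pld2, a phospholipase D) had 0.42 at R3h, 1.56 at R12h, 1.99 at P3h, 1.59 at P6h, 0.25 at P12h and 1.57 at P24h. Probe 11776 (annotated Kndc1) had 1.41 at R12h, -0.08 at P12h and 1.16 at P24h. On R4w these 3 probes were at 0.38, 0.24 and -0.24.

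That shape was looked for in all probes after it had been seen in these. Of 11017 probes also usable on R12h, 3 had P24h within 0.5 of R12h and P12h at least 1 below both, and 10 had P12h at least 1 above both. By the labels R12h and P24h are 24 h apart in sampling after the same run, and the time of day is not given in the sources used here. Among the 10, probe 11080 (annotated Lmnb1, lamin B1) had -1.18 at R3h, -0.98 at R12h, 0.14 at P3h, 1.01 at P12h, -0.97 at P24h and -0.83 at R4w. Probes with large differences were also set against R12h. Of the 25 higher probes among the 11017, 17 had P12h within 0.5 of R12h and 4 had P24h within 0.5 of it, and of the 289 lower ones 223 and 28 did. These probes were picked for the gap between P12h and P24h, and P24h was the wider array. The shares of all 11017 within 0.5 of R12h were not counted, so nothing is read from these counts.

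The 234 probes that moved away downwards made up the largest class as deposited. Cacnb2, a beta subunit of voltage-gated calcium channels, labels the lowest of them on P24h. Probe 12174 had -0.35 at R3h, -2.96 at R12h, -3.15 at P3h, -1.62 at P6h, 0.16 at P12h, -2.29 at P24h and 0.38 at R4w. It was therefore far below the control pool on R12h, P3h and P6h as well as on P24h, and stood under 0.5 in size on R3h, P12h and R4w. Probe 9847 (annotated Bco1, a carotenoid-cleaving oxygenase) was similar in its low values around P12h. It had 0.81 at R3h, -1.48 at R12h, -1.96 at P3h, -0.88 at P6h, -0.29 at P12h, -2.08 at P24h and 0.56 at R4w. Probe 15614 (annotated Msr1, a scavenger receptor of macrophages) had -1.24 at R12h, -1.15 at P6h, -0.24 at P12h and -1.82 at P24h.

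Most of the class had not been at -1 or below on R12h, P3h or P6h, and neither had most probes. Probe 6653 (annotated Tmem115, a Golgi membrane protein) had 0.20 at R3h, -0.57 at R12h, -0.66 at P3h, -0.50 at P6h, -0.17 at P12h, -2.24 at P24h and 0.09 at R4w. Probe 16352 (annotated Pwp1, a protein of ribosome biogenesis) had 0.12 at R12h, -0.45 at P3h, -0.19 at P6h, -0.31 at P12h and -2.20 at P24h. Of 221 members with a ratio on R12h, P3h and P6h, 206 were above -1 on all 3, and 133 were under 0.5 in size on all 3. The shares over all probes on the 3 arrays together were not counted. Members at most -1 numbered 10 of 234 on R12h, 9 of 234 on P3h and 12 of 221 on P6h. Over all usable probes these counts were 246 of 12985, 74 of 13652 and 169 of 9494. The class had the larger share at most -1 on each of these arrays. Its members were picked for a low P24h value, and all arrays share the control pool design. The base is also all usable probes of each array rather than the 11171 kept ones, so nothing further is read from these shares. The class medians were 0.03 at R3h, -0.15 at R12h, -0.10 at P3h, -0.25 at P6h, -0.07 at P12h, -1.17 at P24h and -0.04 at R4w. On R4w 221 of 233 measured members were under 0.5 in size (94.8%), as were most probes on that narrow array (MAD 0.165).

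Several probes went from above the control pool to below it without reaching 1 on both sides. Probes 13391, 12107 and 7255 (annotated Agk, a mitochondrial lipid kinase, Ube2j2, a ubiquitin-conjugating enzyme, and Ccdc81) had nearly the same course. Probe 13391 had 1.03 at R3h, 1.59 at R12h, 1.56 at P3h, 1.54 at P6h, 0.97 at P12h, -1.10 at P24h and 0.43 at R4w. Probe 12107 had 0.98 at R3h, 1.37 at R12h, 1.31 at P3h, 1.39 at P6h, 0.82 at P12h, -1.18 at P24h and 0.30 at R4w. Over the probes measured on all arrays, probe 7255 was the nearest to each of the other two, with largest gaps of 0.218 and 0.188. These 3 were counted as crossing sides in MAD units, with P24h minus P12h between -9.77 and -8.99.

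Further probes were counted as crossing downwards in MAD units. Probe 4326 (annotated P3h1, a collagen prolyl hydroxylase) went from 0.55 to -1.19, probe 9081 (annotated Rab17, a small GTPase) from 0.57 to -0.82, and probe 17685 (annotated Avp, the vasopressin precursor) from 0.55 to -0.90. Probe 6344 (annotated Mafk, a small MAF transcription factor) was the one of these with low values early in recovery. It had -1.38 at R12h, -1.41 at P3h, -0.48 at P6h, 0.67 at P12h and -0.82 at P24h. The Lmnb1 probe, a clone-named probe and an unnamed one made up the rest, and the Arf5 probe crossed upwards.

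Probe 18381 (annotated Fthl17e, a ferritin heavy chain-like gene) was above the control pool on the other 6 arrays, from 0.23 at R4w to 0.58 at P3h, and at -1.67 at P24h. Its difference from P12h was -2.14 log2 units. The lowest difference of all rested on a single value on P12h. Probe 1723 (annotated Pvt1, a long noncoding RNA gene) read 5.15 at P12h, and elsewhere at -0.90 at R3h, -0.25 at R12h, 0.55 at P3h, 0.74 at P24h and 0.55 at R4w, with no ratio on P6h. P24h minus P12h was -4.40. At 0.74 at P24h it was not within the limit for the control level, so it was not counted as returned.

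Probes above the control pool on both arrays showed no common direction between them as deposited. Of the 70, 34 were higher and 36 lower on P24h, with medians of 1.42 at P12h and 1.52 at P24h. In MAD units 2 of the 70 were farther from the control pool on P24h. The highest pair by the mean of P12h and P24h was probe 14989 (annotated Cds2, a CDP-diacylglycerol synthase), which went from 3.66 to 2.88 (higher on P24h by 0.78 when quantile-normalized), and probe 7180 (annotated Tctex1d1, a dynein light chain family member), which went from 3.55 to 2.74. Probe 3309 (annotated Cxcl5, a neutrophil chemokine) read 2.99 at P12h, 2.50 at P24h and 2.05 at R4w. Probe 2417 (annotated Higd1b) went from 3.25 to 2.24, a difference of -1.01. Probe 2176 (annotated Bckdk, the kinase of branched-chain ketoacid dehydrogenase) went from 2.44 to 2.81 as deposited, but from 14.26 to 10.40 in MAD units. On R4w 50 of the 70 were under 0.5 in size, as were most probes on that narrow array (MAD 0.165), and the median of the 70 was 0.13.

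Probes below the control pool on both arrays stood lower on P24h as deposited. This held for 78 of the 88, with medians of -1.66 at P12h and -2.30 at P24h, but in MAD units 19 of the 88 were farther from the control pool on P24h. Probe 13061 (annotated Zfp110, a zinc finger protein) had -4.70 at R3h, -4.32 at R12h, -1.03 at P3h, -2.94 at P12h, -5.53 at P24h and -4.52 at R4w. Its difference was -2.59 log2 units and -3.26 MAD units, lower on both scales. For probe 2728 (annotated Lsr, a lipoprotein receptor) the scales disagreed, with -3.40 at P12h and -5.18 at P24h as deposited, and -19.90 and -19.16 in MAD units. Probes 11887 (annotated Srp54b, a signal recognition particle subunit) and 2477 (annotated Sike1) also changed sign, from -1.50 and -1.49 log2 units to 0.86 and 0.61 MAD units. Probe 14202 (annotated Dlg3, a synaptic scaffold protein) went from -3.48 to -4.30 as deposited and was 4.47 MAD units higher on P24h after scaling. The class medians were -2.36 at R3h, -2.12 at R12h, -0.59 at P3h, -2.04 at P6h and -1.69 at R4w.

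Compared with the earlier steps of recovery, the step from P12h to P24h had the most probes lower by 1 or more. There were 291 such probes here (2.6%), against 7 of 12682 from R12h to P3h, 123 of 9417 from P3h to P6h and 46 of 9405 from P6h to P12h. In MAD units the counts past -3 were 735, 78, 393 and 209 in the same order. Probes higher by 1 or more numbered 27 here, and 149, 45 and 68 at the earlier steps. Probes that returned from above numbered 7, 23 and 58 at the earlier steps and 15 from P12h to P24h, and those that returned from below 106, 15 and 66, and 2 from P12h to P24h. On the 9023 probes usable on all 7 arrays the counts from above were 2, 21, 34 and 15, and those from below 50, 10, 64 and 2. P24h was the widest of the 7 arrays over its usable probes, with a MAD of 0.270 against 0.165 to 0.220 on the others, and 30.5% of its probes were at 0, against 17.3% on P12h and 41.7% on P6h. The part of that width and of those zeros in the counts was not tested beyond the scaling given here. Consecutive steps share an array and all share the control pool design, so these counts are not independent of each other.

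The lower probes were spread over the whole table. In 12 blocks of consecutive probe numbers, with 892 to 966 kept probes each, between 1.53% and 3.67% were lower by 1 or more, and the block medians of the difference lay between -0.04 and 0.04. What a probe number says of the place on the slide is not given in the sources used here.

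Groups of genes were then followed through the probes annotated to them, and few of these probes differed by 1 or more. The 16 lists held 213 kept probes, of which 2 were higher by 1 or more (0.939%) and 5 lower (2.35%), against 0.242% and 2.6% of all 11171. List medians of P24h minus P12h lay between -0.21 and 0.08, against 0.02 over all probes. These are sets of labels whose probes did not agree under one name, and they are described with no test.

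Clock genes drive the daily rhythm of muscle transcripts, and the labels give no time of day for the 2 samples. Of the 10 kept probes of the clock list, 3 were higher on P24h and 7 lower, with a median of -0.15 and none past 1 in size. Probe 3425 (annotated Arntl, the activator BMAL1) had 0.17 at R12h, 0.43 at P3h, 0.41 at P6h, 0.53 at P12h and -0.33 at P24h. Probe 10298 (annotated Bhlhe41, a repressor) went from 0.26 to -0.54. Probe 13212 (annotated Nr1d2, the repressor REV-ERB beta) went the other way, from -0.42 to 0.07. The probes annotated Cry1, a repressor, differed from each other: probe 670 went from -0.45 to -0.29 and probe 5125 from 0.17 to 0.00.

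Metabolic genes known to respond to endurance exercise also stayed within 1. In that list of 13 kept probes the median was -0.03, and the differences ran from -0.65 to 0.50. Probe 4886 (annotated Pdk4, the kinase that holds back glucose oxidation) had 0.29 at R12h, 0.43 at P3h, 0.19 at P6h, 0.32 at P12h and -0.33 at P24h. Probe 6479 (annotated Ppargc1a, the coactivator of mitochondrial biogenesis) was between -0.04 and 0.12 on the other single-run arrays and at 0.46 at P24h. Probe 12771 (annotated Ucp3, a mitochondrial carrier) went from 0.21 to 0.70. Probes 13827 and 6628, both annotated Tfrc, the transferrin receptor, went from 0.39 to -0.19 and from 0.05 to 0.35.

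Fuel and respiration lists showed small medians. The list of respiratory chain and citric acid cycle genes had a median of 0.08 over 13 probes, 8 of them higher on P24h. Probe 15153 (annotated Idh3a, an isocitrate dehydrogenase subunit) went from -0.12 to 0.59, and probe 1610 (annotated Cox4i1, of cytochrome c oxidase) from -0.61 to 0.03. Probe 17593 (annotated Cox6a2, of the same oxidase) went the other way, from -0.17 to -0.71. The other Idh3a probe (17931) differed by 0.08. Fatty acid oxidation had 0.04 over 7 probes, led by probe 747 (annotated Hadhb, of the trifunctional protein), from -0.35 to -0.83. Glycolysis and glycogen had -0.01 over 27 probes, and its 2 probes lower by 1 or more were both annotated Gapdh: probe 2822 went from -0.07 to -1.48 and probe 2859 from 0.19 to -1.07.

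Stress and turnover lists were as mixed. Of 11 immediate early probes 3 were higher and 8 lower, with a median of -0.21. Probe 10684 (annotated Dusp1, a phosphatase of MAP kinases) went from 0.58 to -0.11 and probe 6399 (annotated Klf4, a transcription factor) from -0.93 to -0.38, both nearer to the control pool on P24h. Probe 17539 (annotated Fosl2) was farther from it on P24h, going from -0.08 to -0.41. Probe 15710 (annotated Zfp36, which destabilises cytokine messages) was away on both arrays, at 1.34 and 1.09, after 1.68 at R12h, 2.01 at P3h and 0.71 at P6h. Among 12 heat shock and chaperone probes the median was 0.07. Probe 5818 (annotated Dnaja1, a co-chaperone of HSP70) was lower by 1.07, from 0.02 to -1.05. Among 23 atrophy and proteasome probes the median was 0.05 and the largest difference that of probe 3548 (annotated Cdkn1a, a cell cycle inhibitor), from -1.67 to -2.66, which was -0.07 in MAD units. The other 2 probes annotated Cdkn1a differed by 0.21 and -0.22.

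Lists for matrix, repair and other cell types had 1 or 0 probes past 1 in either direction. Of 18 extracellular matrix probes, with a median of -0.09, the Nid1 probe was higher by 2.04. The probes annotated Timp2 (10381), an inhibitor of metalloproteinases, and Col1a1 (350), a fibrillar collagen, were lower by 0.73 and 0.60, and the other Timp2 probe (218) was higher by 0.15. Myogenic regulators had a median of 0.08 over 12 probes, none past 1 in size. Of 15 macrophage and leukocyte probes 8 were higher on P24h, with a median of 0.02. Among them probe 14322 (annotated Laptm5, a lysosomal protein of leukocytes) went from 0.00 to 1.07, and probe 15844 (annotated Cd68, a macrophage marker) from 0.06 to -0.80. Of 22 cytokine and chemokine probes the median was -0.11, and probe 13530 (annotated Ccl4) went from -0.03 to -1.06. The other kept probes annotated Ccl4 (6379 and 10714) differed by -0.14 and 0.10. Endothelial markers had a median of 0.08 over 10 probes, adipocyte markers -0.01 over 8, erythroid markers -0.06 over 6, and Schwann cell and nerve markers -0.11 over 7. The 1 probe past 1 in these 4 lists was annotated Alas2 (8351), an enzyme of haem synthesis in red cells, which went from 0.36 to -0.71.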

How the data were processed

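The values are the log2 ratios deposited by the authors, 1 per probe and array, from arrays with 2 channels. The log base was read from the values. Per the labels, Cy5 held the running pool and Cy3 the untrained pool. For scanner, background correction, normalization and centring the entry is "not given in the sources used here", and depth is unknown without intensities.

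Arrays were grouped by their labels. Probes above 1e-12 in size on P12h and P24h were kept, with no averaging or filter. P24h minus P12h was computed as deposited and after dividing each array by its MAD (no constant) over kept probes. The sorting of probes was tested on simulated data. Python 3.11.15, pandas 2.3.3 and numpy 2.4.6 were used. Of 16273 probes 13731 had 1 symbol (13687 updated to RefSeq names by gene identifier), 52 several and 2490 none. The median of the kept probes was -0.01 on P12h and 0.01 on P24h.

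The members, limits and gene lists were chosen with earlier results of these data known. The text names, among probes with 1 symbol that is no clone, predicted or EST name: the 10 highest and 10 lowest differences, the 5 largest in each direction per class, probes that crossed, and up to 3 probes per list. As deposited no probe crossed, so the rule for crossing named none. The probes annotated P3h1, Rab17, Avp and Mafk came from the crossing class in MAD units, outside these rules. Others were chosen after their values were seen: those annotated Grik2, Ubash3a, Egr2, Capn5, Kpna2, Kndc1, Cry1, Ucp3 and Zfp36. So were the further probes given for a name already listed. Alternatives changed the scaling, centring, local median, probe set, minimum size, averaging and limits.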

Additional observations from a re-analysis of the deposited data

How the results depend on the processing

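Centring, subtracting the median of the nearest probes by number, keeping probes usable on all 7 arrays, and a minimum size of 0.01 left each of the 10 counts within 1.5 times its value. Scaling to a common MAD, with limits of 1 and 0.5 log2 units, gave 190 lower probes, 57 returned from above, 20 returned from below, 11 moved away upwards, 71 moved away downwards, 1 that crossed and 322 nearer the control level on P24h (95 as deposited, both sides together). Scaling by the SD gave 40, 14, 11 and 98 for the returned and moved away classes in the same order, and 254 nearer. Quantile normalization gave 42 higher, 146 lower, 21 returned from above, 38 returned from below, 19 moved away upwards, 66 moved away downwards, 1 that crossed and 226 nearer. Averaging probes of 1 symbol gave 15 higher and 1 returned from below. With limits of 1.5 and 0.75 there were 7 higher, 52 lower, 4 returned from above, 0 from below, 10 moved away upwards, 32 moved away downwards, 24 away above on both, 51 away below on both, and 31 nearer. Higher probes were outnumbered by lower ones under all of these. Scaling by MAD, put back to log2 units, reversed the difference of the probes annotated Lsr (0.16), Srp54b (0.19) and Sike1 (0.13). The differences of the probes annotated Dlg3 (0.96), Bckdk (-0.83), C1qa (0.49) and Slc4a1 (-0.09), under 1 in size as deposited, also changed sign, as did the list medians of glycolysis and glycogen (0.08) and of fatty acid oxidation (-0.08). Quantile normalization turned the sign for Cds2 (0.78), Dlg3 (0.94) and C1qa (0.13), and scaling by the SD for Dlg3, Bckdk, C1qa and Slc4a1. Averaging leaves fewer units, and a far limit of 1.5 can only lower the counts that use that limit alone. The returned and moved away classes also use the near limit, which was looser at 0.75. For the other changes the cause was not tested. No paired analysis was possible because each condition has 1 array, so no replicate could be left out either. Without intensities, signal over background could not be judged.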
